A study of Mus musculus with 8 samples.

Results

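Secondary (specific) and tertiary (gelatinase) granules are the storage compartments that neutrophils fill late in maturation. The genes described here are 10 that are expressed at that time, chosen by name: Ltf, Camp, Ngp, Lcn2, Mmp8, Mmp9, Chi3l3, S100a8, S100a9 and Cd177. All 10 were found among the 34199 genes counted, and all 10 were among the 13080 genes that passed the filter on low counts. They were measured by bulk RNA sequencing in immortalised granulocyte-macrophage progenitors (iGMPs) of C57Bl/6 mouse origin. Every group carried the Lys-GFP reporter and HOXA9 fused to the estrogen receptor, and all were grown with stem cell factor. The t0 cells, kept in estradiol at 150 ng/ml, were taken at 0 h. In the same medium, CAF-1 OFF cells had 500 µM IPTG for 48 h, which switches on an shRNA against Chaf1b, a subunit of the histone chaperone CAF-1. IPTG control cells were treated with IPTG for 48 h, and the labels do not say which hairpin they carried. HOXA9 OFF cells were washed and kept for 48 h without estradiol. Each group had 2 libraries. The study's Results describe the shRNA lines as clonal, and a legend in its supplement mentions RNA-seq of 2 independent sub-clones. The labels do not tie replicate numbers to sub-clones or cultures, so the p-values below measure the spread between these libraries, whatever its source.

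A neutrophil makes its granules in sequence while it matures, and a protein is sorted by when it is made. Primary granules with elastase and myeloperoxidase come at the promyelocyte stage, specific granules with lactoferrin and cathelicidin follow, and gelatinase granules come last. Specific granule genes are classical targets of C/EBP epsilon, a transcription factor of the C/EBP family, and patients who lack it have neutrophils without specific granules. In this list Ltf (lactoferrin, an iron-binding protein), Camp (the cathelicidin antimicrobial peptide), Ngp (neutrophilic granule protein, of the cystatin fold), Lcn2 (lipocalin 2, which binds bacterial siderophores) and Mmp8 (neutrophil collagenase) are specific granule genes, and Mmp9 encodes gelatinase. S100a8 and S100a9 encode the partners of calprotectin, which is mostly cytosolic. Chi3l3 encodes a chitinase-like lectin, and Cd177 a neutrophil surface glycoprotein that specific granules also hold.

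Promoters of the RefSeq annotation (GRCm38.p6, from 250 bases before to 50 bases after the start of the gene) were matched by symbol for 9 of the 10 genes. Chi3l3 was matched under its later name Chil3, and Mmp9 had no entry. The 4 promoters below were picked after the levels and the motif matches had been seen. Ltf did not pass the test after CAF-1 depletion and had the largest fold change of the 10 in HOXA9 OFF cells. Mmp8 was higher in CAF-1 OFF than in HOXA9 OFF cells, and Chi3l3 was the most abundant of the 10 in HOXA9 OFF cells. Camp was picked because its promoter held neither motif searched. Each is written 5′ to 3′ on the strand of the gene, and capitals mark matches to a C/EBP motif (TTNNGNAA, or TTNCNNAA as the reverse strand reads) or a PU.1 motif (GAGGAA, or TTCCTC).
Ltf (chr9:111019042-111019341, plus strand): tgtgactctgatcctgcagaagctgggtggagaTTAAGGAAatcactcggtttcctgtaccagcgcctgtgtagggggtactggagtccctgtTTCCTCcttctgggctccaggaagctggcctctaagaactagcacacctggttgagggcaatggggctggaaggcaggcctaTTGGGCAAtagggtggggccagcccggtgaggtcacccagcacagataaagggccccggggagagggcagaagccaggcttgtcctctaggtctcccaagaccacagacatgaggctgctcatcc
Camp (chr9:109849407-109849706, minus strand): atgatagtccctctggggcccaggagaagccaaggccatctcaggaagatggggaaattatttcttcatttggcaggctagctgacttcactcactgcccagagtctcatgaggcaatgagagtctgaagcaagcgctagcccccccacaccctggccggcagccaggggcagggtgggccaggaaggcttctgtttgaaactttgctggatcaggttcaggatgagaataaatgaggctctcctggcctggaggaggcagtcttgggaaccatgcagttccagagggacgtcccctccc
Mmp8 (chr9:7558179-7558478, plus strand): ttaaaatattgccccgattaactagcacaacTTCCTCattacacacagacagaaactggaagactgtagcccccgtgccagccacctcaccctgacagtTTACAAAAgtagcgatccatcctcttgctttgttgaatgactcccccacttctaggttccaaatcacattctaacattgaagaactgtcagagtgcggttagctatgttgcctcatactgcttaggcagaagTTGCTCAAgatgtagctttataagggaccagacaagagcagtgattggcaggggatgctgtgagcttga
Chi3l3 (chr3:106167515-106167814, minus strand): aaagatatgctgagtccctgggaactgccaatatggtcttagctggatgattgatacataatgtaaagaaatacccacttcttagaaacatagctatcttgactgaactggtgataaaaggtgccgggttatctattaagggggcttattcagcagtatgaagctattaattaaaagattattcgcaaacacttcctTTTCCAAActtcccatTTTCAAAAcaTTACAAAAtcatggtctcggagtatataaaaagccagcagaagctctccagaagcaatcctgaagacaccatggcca
The Ltf promoter held 2 C/EBP matches and 1 PU.1 match, the Mmp8 promoter also 2 and 1, and the Chi3l3 promoter 3 C/EBP matches and 0 PU.1 matches, while the Camp promoter held 0 of either in this window. The Mmp8 and Ltf promoters had the same counts of both motifs, and whether the motifs bear on the levels of these genes was not tested. A C/EBP match was present in 8 of the 9 promoters and in 40.7% of all 32851 promoters of this length, and a PU.1 match in 5 of the 9 and in 28.3% of all. No C/EBP match overlapped a PU.1 match in these promoters. A match is a description of the letters and not a binding site.

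Total gene counts ranged from 14044284 to 22423837 per library, so that 3 counts, taken as the floor, corresponded to 0.128 to 0.212 CPM (counts scaled to a library of 1000000). Chaf1b was at 96.8 and 100.3 CPM in t0, at 95.1 and 101.7 CPM in the IPTG control, at 18.7 and 9.72 CPM in CAF-1 OFF, and at 48.3 and 41.0 CPM in HOXA9 OFF, so the knockdown matched the labels and was deeper in replicate 2. The t0 libraries had Cd34, a progenitor surface marker, at 1872 and 1711 CPM and Kit, the receptor of stem cell factor, at 638 and 613 CPM, so the defining progenitor markers were present. IPTG control replicate 1 had 14.6% of its reads outside genes against 5.30 to 7.79% in the other libraries. The HOXA9 OFF libraries differed in macrophage genes: Mmp12 was at 3.31 CPM in replicate 1 and 289 CPM in replicate 2, and C1qb, a complement component made by macrophages, at 0.434 and 121 CPM. Because these are bulk libraries, more cells of a type and more RNA per cell cannot be told apart in any value below.

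Together the 10 genes made up 0.0111% and 0.0106% of the gene counts in t0, 0.0115% and 0.0111% in the IPTG control, 0.152% and 0.285% in CAF-1 OFF, and 1.74% and 1.28% in HOXA9 OFF. The summed level was 110 and 101 CPM in t0, 1435 and 2699 CPM in CAF-1 OFF, and 19488 and 14155 CPM in HOXA9 OFF. Within a group the libraries mostly ranked alike across genes: replicate 1 was the higher of its pair for 8 of the 10 genes in t0, for 8 in the IPTG control and for 10 in HOXA9 OFF, and replicate 2 was the higher for 9 in CAF-1 OFF, the exception being Ngp. The share of all genes higher in the same replicate was not counted. A shift of the whole library therefore cannot be told apart from a shift of these genes. The higher CAF-1 OFF library was also the library with less Chaf1b RNA, and whether the depth of knockdown sets this was not tested.

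**Figure D1:**
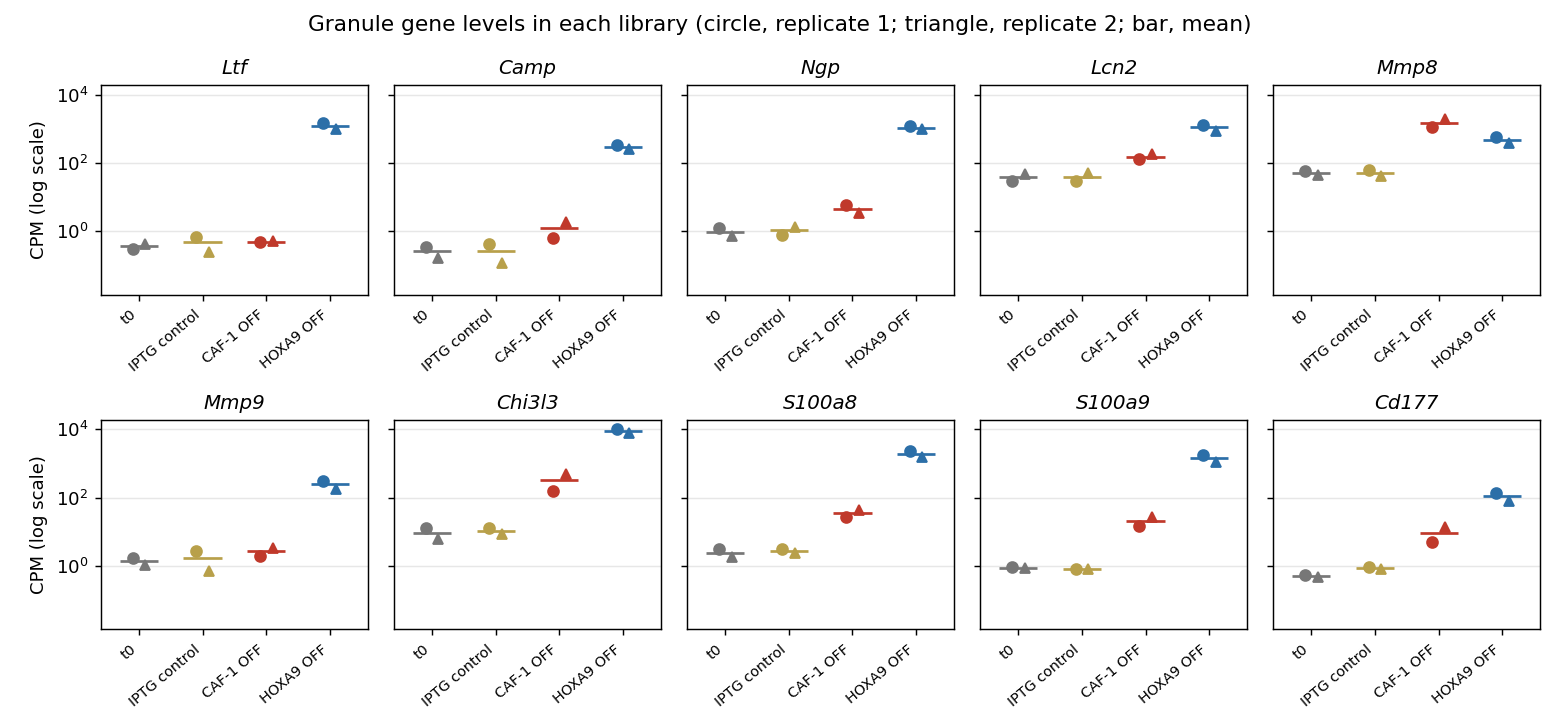
Level of each of the 10 genes in every library, in CPM on a log axis, for t0, IPTG control, CAF-1 OFF and HOXA9 OFF (circle, replicate 1; triangle, replicate 2; bar, mean of 2). Ltf stays below 1 CPM in 6 libraries and reaches 1440 and 969 CPM in HOXA9 OFF, whereas Mmp8 is highest in CAF-1 OFF.

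IPTG alone was examined first. Comparing IPTG control with t0, 0 of the 10 genes were called (edgeR, quasi-likelihood test, FDR under 0.05 and at least 1.5-fold), 0 had an unadjusted p below 0.05, the smallest p being 0.354, and DESeq2 also called 0. Of all tested genes 0% were called higher. The median log2 fold change of the 10 was 0.14, against 0 over all genes. When the filter on low counts saw only these 2 groups, 8 of the 10 genes were tested and 0 were called, so the other 2 had entered the test through their levels in the treated groups. The t0 and IPTG control libraries therefore served as 2 baselines for CAF-1 depletion. They were not fully independent, since same-numbered libraries of these groups deviated together in part (r of 0.48 over 13080 genes).

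After CAF-1 depletion, 7 of the 10 genes rose against t0: Ngp, Lcn2, Mmp8, Chi3l3, S100a8, S100a9 and Cd177. Ltf, Camp and Mmp9 did not pass the test. Over all tested genes 10.5% were called higher. The median log2 fold change of the 10 was 3.05, and it was 0.01 over all genes. Against the IPTG control 7 genes were called, where 9.56% of all genes were, and they were the genes named above, with a median log2 fold change of 2.83. With only these 2 groups in the filter, 9 of the 10 were tested, Ltf being left out, and 7 were called. The count depended on single baseline libraries. Without t0 replicate 1, 4 genes were called against t0 (Mmp8, Chi3l3, S100a8 and S100a9). Without IPTG control replicate 1 the same 4 were called against the IPTG control, and without IPTG control replicate 2, 3 were (Mmp8, S100a8 and S100a9). Ngp was also lost against t0 without t0 replicate 2 and against the IPTG control without CAF-1 OFF replicate 1, and Lcn2 was lost against both baselines without CAF-1 OFF replicate 2.

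Mmp8, which cleaves fibrillar collagen, had the highest level per kilobase of the 10 in CAF-1 OFF cells. Its level was 58.3 and 43.4 CPM in t0, 61.0 and 42.6 CPM in the IPTG control and 1091 and 1937 CPM in CAF-1 OFF. Both CAF-1 OFF libraries lay above every baseline library. The log2 fold change was 4.90 ± 0.37 (SE) against t0, a 29.8-fold rise (edgeR with Benjamini-Hochberg adjustment, adjusted p = 0.0012), and 4.87 ± 0.38 against the IPTG control (adjusted p = 0.0015). Chi3l3 had a change of similar size, from 13.1 and 6.12 CPM in t0 and 12.9 and 8.46 CPM in the IPTG control to 160 and 484 CPM in CAF-1 OFF. Its log2 fold change against t0 was 5.07 ± 0.61 (SE; edgeR adjusted p = 0.0044), and the CAF-1 OFF libraries differed from each other more than those of Mmp8 did.

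The calprotectin genes rose together. S100a8 went from 3.07 and 1.84 CPM in t0 to 28.0 and 44.5 CPM in CAF-1 OFF, 14.8-fold (log2 3.88 ± 0.36 SE, edgeR adjusted p = 0.0022). S100a9 went from 0.935 and 0.856 CPM to 15.0 and 28.1 CPM, 23.9-fold (log2 4.58 ± 0.42 SE, adjusted p = 0.0022). Neither overlapped its baseline libraries, which for the IPTG control were 3.25 and 2.39 CPM for S100a8 and 0.848 and 0.797 CPM for S100a9. These 2 genes and Mmp8 were called against both baselines under every alternative tried.

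Cd177, Lcn2 and Ngp rose by smaller or less secure amounts. Cd177 was at 0.534 and 0.471 CPM in t0 (12 and 11 counts), 0.918 and 0.797 CPM in the IPTG control and 5.21 and 13.7 CPM in CAF-1 OFF, with a log2 fold change against t0 of 4.22 ± 0.58 (SE; edgeR adjusted p = 0.0060). Lcn2 started from a higher level, 30.4 and 46.4 CPM in t0 and 30.4 and 49.8 CPM in the IPTG control, and reached 126 and 182 CPM, 4.02-fold over t0 (log2 2.01 ± 0.33 SE, adjusted p = 0.0101). Ngp went from 1.25 and 0.727 CPM in t0 and 0.777 and 1.35 CPM in the IPTG control to 5.74 and 3.40 CPM, 4.62-fold over t0 (log2 2.21 ± 0.36 SE, adjusted p = 0.0092). All CAF-1 OFF values of these 3 genes were above all 4 baseline values.

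The other 3 genes did not pass the test, and their values bound how large a change the data allow. Ltf had 0.474 and 0.523 CPM in CAF-1 OFF (9 and 10 counts), 0.312 and 0.428 CPM in t0 (7 and 10 counts), and 0.706 and 0.245 CPM in the IPTG control. The log2 fold change against t0 was 0.42 ± 0.59 (SE), with a 95% interval from a 0.519-fold to a 3.45-fold level (edgeR adjusted p = 0.640). Mmp9 had 1.95 and 3.50 CPM in CAF-1 OFF, 1.78 and 1.11 CPM in t0 and 2.69 and 0.736 CPM in the IPTG control, so that it overlapped the IPTG control. Its log2 fold change against t0 was 0.92 ± 0.57 (SE), with a 95% interval from 0.759-fold to 4.69-fold (edgeR adjusted p = 0.282). Camp had 0.632 and 1.83 CPM in CAF-1 OFF (12 and 35 counts), 0.356 and 0.171 CPM in t0 (8 and 4 counts) and 0.424 and 0.123 CPM in the IPTG control. Its log2 fold change against t0 was 2.21 ± 0.66 (SE), with a 95% interval from 1.59-fold to 13.4-fold and an edgeR adjusted p = 0.0513, just short of the threshold. Camp was called against t0 by DESeq2 (adjusted p = 0.0311), without the low-count filter (edgeR adjusted p = 0.0198), with library size in place of TMM (adjusted p = 0.0481), and without CAF-1 OFF replicate 1 or either HOXA9 OFF library. Against the IPTG control it was called without the low-count filter and without CAF-1 OFF replicate 1.

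**Figure D2:**
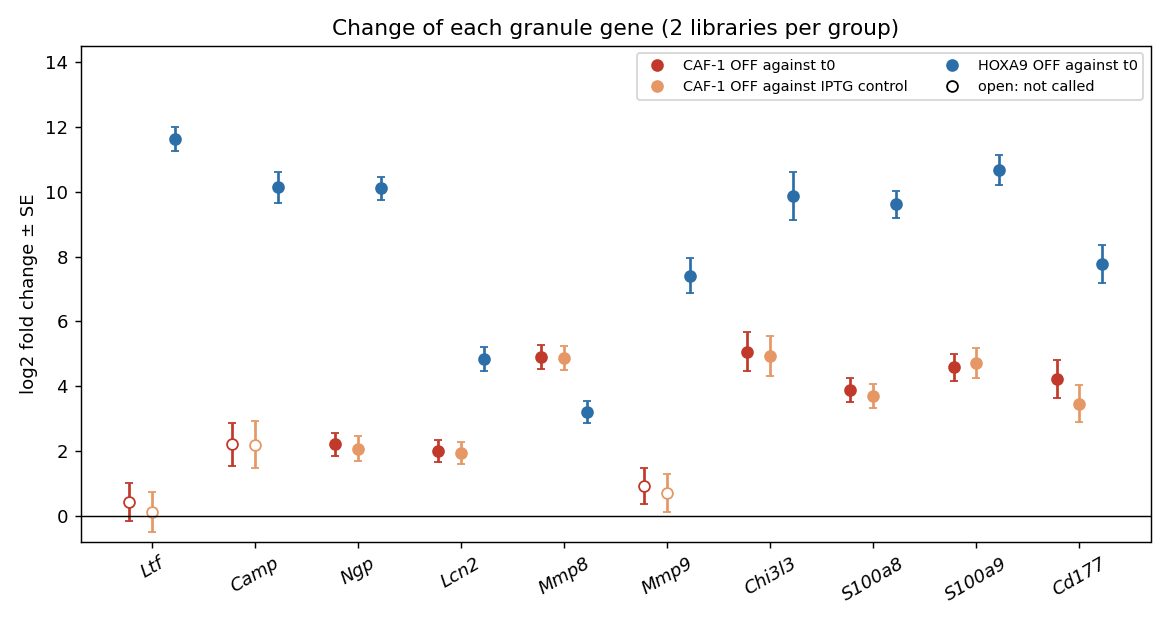
Log2 fold change with its standard error for each of the 10 genes (2 libraries per group) in CAF-1 OFF against t0, CAF-1 OFF against IPTG control, and HOXA9 OFF against t0. Filled points passed the call rule and open points did not; Ltf, Camp and Mmp9 are open in both CAF-1 OFF comparisons, and Mmp8 alone has its CAF-1 OFF points above its HOXA9 OFF point.

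With HOXA9 inactivated, 10 of the 10 genes rose against t0, and 0 fell. The t0 counts of Ltf (7 and 10) and Camp (8 and 4) were too low to pass the filter on low counts by themselves. Other groups, HOXA9 OFF among them, admitted both genes to the test. Over all tested genes 25.2% were called higher and 22.1% lower. The median log2 fold change of the 10 was 9.73, against 0.01 over all genes. This comparison and that of CAF-1 OFF share the t0 libraries. All 10 stayed called when either HOXA9 OFF library was left out, with log2 fold changes from 2.89 to 11.33 without replicate 1 and from 3.45 to 11.90 without replicate 2, the library with more Mmp12 and C1qb. Macrophage markers as a list were higher than in t0 in both HOXA9 OFF libraries, as given with the marker lists.

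The genes that had not passed the test in CAF-1 OFF cells rose far in HOXA9 OFF cells. Ltf reached 1440 and 969 CPM (26544 and 19534 counts), a log2 fold change of 11.64 ± 0.37 (SE; edgeR adjusted p = 8.5e-06), over a baseline of 7 and 10 counts. Camp reached 343 and 260 CPM, with a log2 fold change of 10.13 ± 0.48. Mmp9 reached 309 and 185 CPM, with a log2 fold change of 7.41 ± 0.54. Ngp, which had passed the test in CAF-1 OFF cells, reached 1186 and 988 CPM at a log2 fold change of 10.10 ± 0.36. For these 4 genes the HOXA9 OFF libraries were higher than every other library by over 50-fold.

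S100a9 reached 1818 and 1125 CPM (log2 fold change 10.67 ± 0.47 SE) and S100a8 2310 and 1524 CPM (9.61 ± 0.43). Chi3l3 reached 10068 and 7778 CPM (9.86 ± 0.75) and took 51.7% and 54.9% of the counts of the 10 genes. Cd177 reached 141 and 81.4 CPM (7.77 ± 0.59), and Lcn2 1317 and 868 CPM (4.83 ± 0.37). Mmp8 reached 556 and 376 CPM, which was the smallest change of the 10 in this comparison, 9.17-fold (log2 3.20 ± 0.35 SE, edgeR adjusted p = 0.0002), and that adjusted p was the largest of the 10.

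Set directly against CAF-1 OFF cells, HOXA9 OFF cells had 9 of the 10 genes higher, where 21.4% of all genes were, and 1 lower, where 22.2% of all genes were. The median log2 fold change of the 10 was 5.91. Mmp8 was the gene that was lower, 3.25-fold (log2 fold change -1.70 ± 0.33 SE, edgeR adjusted p = 0.0034), and the libraries did not overlap, with 1091 and 1937 CPM in CAF-1 OFF against 556 and 376 CPM in HOXA9 OFF. The genes higher in HOXA9 OFF ranged from Lcn2, 7.08-fold, through Cd177, 11.7-fold, Chi3l3, 27.7-fold, S100a8, 52.9-fold, S100a9, 68.2-fold, and Mmp9, 90.4-fold, to Ngp, 238-fold, Camp, 243-fold, and Ltf, 2386-fold. These 10 calls and their directions were kept under every alternative tried.

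The make-up of the 10 genes differed accordingly. Mmp8 gave 53.0% and 42.8% of their counts in t0, 53.5% and 39.7% in the IPTG control, 76.1% and 71.8% in CAF-1 OFF, and 2.86% and 2.66% in HOXA9 OFF. Lcn2 gave 27.6% and 45.7% in t0 and 6.76% and 6.13% in HOXA9 OFF. Chi3l3 gave 11.9% and 6.03% in t0 and 11.2% and 17.9% in CAF-1 OFF, against 51.7% and 54.9% in HOXA9 OFF. Ltf gave 0.033% and 0.0194% in CAF-1 OFF and 7.39% and 6.84% in HOXA9 OFF.

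**Figure D3:**
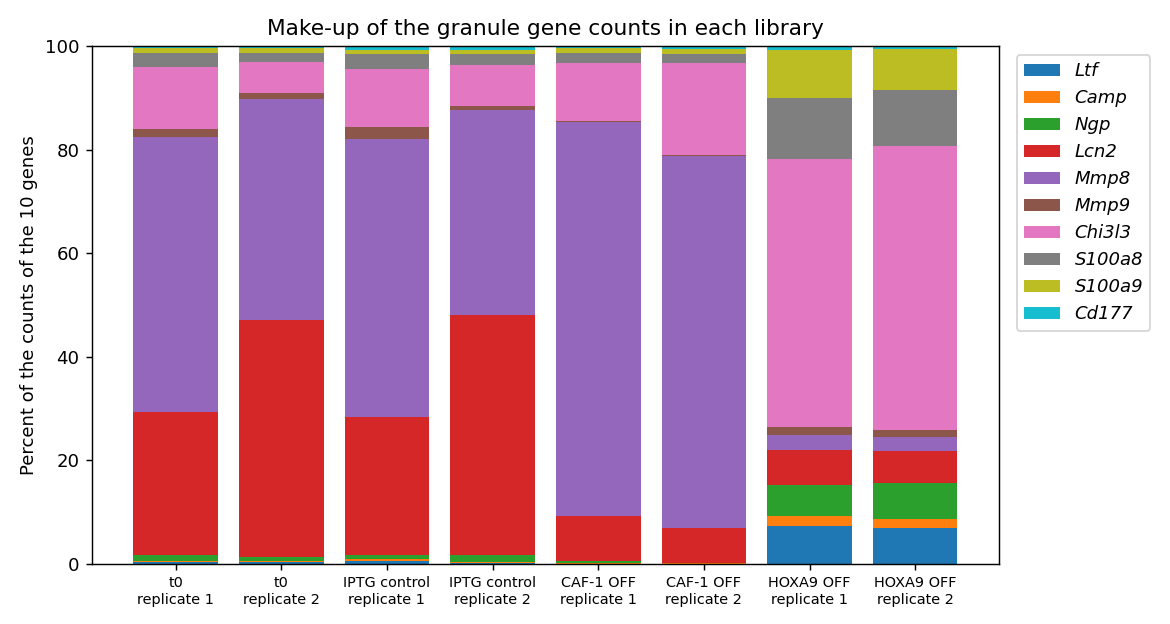
Share of the counts of the 10 genes that each gene took in every library, in percent of their summed counts, not corrected for gene length. Mmp8 makes up 76.1% and 71.8% in CAF-1 OFF, and Chi3l3 51.7% and 54.9% in HOXA9 OFF.

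Compared per kilobase of merged exons, levels in t0 ran from Mmp8 (20.7 ± 4.3 SD CPM per kilobase, n = 2) and Lcn2 (16.7 ± 4.9) through S100a8 (6.26 ± 2.22), Chi3l3 (5.65 ± 2.90), S100a9 (1.72 ± 0.11), Ngp (0.811 ± 0.302), Camp (0.439 ± 0.218), Mmp9 (0.409 ± 0.133) and Cd177 (0.185 ± 0.017) to Ltf (0.135 ± 0.030). The libraries of Mmp8 and Lcn2, of S100a8 and Chi3l3, and of Camp and Mmp9 overlapped, as neighbours in that order. The IPTG control had the same order except that Mmp9 and Camp, which overlapped there too, exchanged places. In CAF-1 OFF cells Mmp8 (617 ± 244), Chi3l3 (189 ± 135), S100a8 (92.5 ± 29.9), Lcn2 (67.0 ± 17.1) and S100a9 (41.3 ± 17.8) led, and Ngp (3.75 ± 1.36), Cd177 (3.50 ± 2.23), Camp (2.05 ± 1.41), Mmp9 (0.770 ± 0.311) and Ltf (0.182 ± 0.013) followed. There Chi3l3 overlapped S100a8, S100a8 overlapped Lcn2, and Ngp, Cd177 and Camp overlapped each other, while Mmp8 was clear of Chi3l3 and S100a9 of Ngp. In HOXA9 OFF cells the order was Chi3l3 (5249 ± 953), S100a8 (4889 ± 1418), S100a9 (2819 ± 938), Ngp (893 ± 115), Camp (502 ± 98), Lcn2 (475 ± 138), Ltf (439 ± 122), Mmp8 (190 ± 52), Mmp9 (69.8 ± 24.6) and Cd177 (41.0 ± 15.5), in which Chi3l3 overlapped S100a8, and Camp, Lcn2 and Ltf overlapped each other. Lcn2 is sensitive to the length used: over its longest protein-coding transcript (915 bases against 2302 bases of merged exons) it was at 1194 ± 346 CPM per kilobase in HOXA9 OFF and at the head of the order in t0, at 42.0 ± 12.3.

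Ratios between related genes were taken per kilobase and were not tested. The collagenase to gelatinase ratio, Mmp8 over Mmp9, was 47.2 and 56.3 in t0, 32.8 and 83.6 in the IPTG control, 808 and 798 in CAF-1 OFF, and 2.60 and 2.93 in HOXA9 OFF. The S100a8 to S100a9 ratio was 4.38 and 2.86 in t0, 5.10 and 3.99 in the IPTG control, 2.48 and 2.11 in CAF-1 OFF, and 1.69 and 1.80 in HOXA9 OFF. The Ngp to Camp ratio was 1.73 and 2.10 in t0, 0.905 and 5.43 in the IPTG control and 4.49 and 0.917 in CAF-1 OFF, all on few Camp counts, and 1.71 and 1.88 in HOXA9 OFF.

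In the mm9 build of the files, Ltf lies at chr9:110921796-110945270, Ngp at chr9:110322254-110325514 and Camp at chr9:109749889-109751970, with 596 kb between Ngp and Ltf and 570 kb between Camp and Ngp. Mmp8 is on the same chromosome at chr9:7558429-7568486. S100a8 (chr3:90472993-90473956) and S100a9 (chr3:90496554-90499643) are 22.6 kb apart on opposite strands, and Chi3l3 lies on the same chromosome at chr3:105950472-106022425, a span that overlaps the related gene Chi3l4. Lcn2 is at chr2:32240153-32243317, Mmp9 at chr2:164766280-164781350 and Cd177 at chr7:25529004-25545330. Of the 50-base windows in the Chi3l3 transcript, 81.5% were found in no other protein-coding gene, the rest being shared with Chi3l4, so its counts are uncertain to that extent. Chi3l4 itself was at 5.05 and 5.70 CPM in HOXA9 OFF and at or below 0.105 CPM elsewhere. For Cd177, 96.7% of windows were unique, and for the other 8 genes 100%.

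The profile of the 10 genes over the 8 libraries was summarised as the mean of their centred log2 CPM. Mmp8 followed this mean least, with a Pearson r of 0.63, and the other 9 had values from 0.946 (Ltf) to 0.998 (S100a8), the mean including each gene itself. The 5 other genes nearest to the mean were Tnfrsf1a, the tumour necrosis factor receptor, Atp2a3, a calcium pump of the endoplasmic reticulum, 9030617O03Rik, Trim12a and Sdccag8, with r from 0.998 to 0.999. These are descriptions over 8 libraries that fall into 4 groups, each point sharing its library's depth. Of 9832 genes, 98 reached an r of 0.99 or more, so a place near the top says little. Tnfrsf1a was at 95.1 and 89.4 CPM in t0, 133 and 153 CPM in CAF-1 OFF and 362 and 331 CPM in HOXA9 OFF, far smaller steps than those of the granule genes.

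The counts of the gene lists that follow are against t0 and stand beside the shares of all genes called, which were 10.5% higher and 3.5% lower in CAF-1 OFF, and 25.2% higher and 22.1% lower in HOXA9 OFF. The filter on low counts saw all groups, so some listed genes entered the test only through HOXA9 OFF. Among them were Chi3l1, Fpr1, Fpr2 and Chi3l4, at or below 0.141 CPM in every other library. Their calls of higher in HOXA9 OFF were set in part by the filter and are included in the counts. Other genes of specific and gelatinase granules and secretory vesicles, 20 listed and 18 tested, gave 11 higher and 0 lower in CAF-1 OFF against t0 (median log2 fold change 2.03) and 18 higher in HOXA9 OFF (median 4.75). Slpi, the secretory leukocyte protease inhibitor, rose by 2.44 ± 0.39 (log2, SE) in CAF-1 OFF and by 1.73 ± 0.38 in HOXA9 OFF. Itgb2 and Itgam, the chains of the adhesion receptor Mac-1, rose by 1.93 ± 0.25 and 2.13 ± 0.47 in CAF-1 OFF and by 4.10 ± 0.27 and 6.47 ± 0.56 in HOXA9 OFF. Cyba, a subunit of the NADPH oxidase, had -0.22 ± 0.19 in CAF-1 OFF, which was not called, and rose by 1.64 ± 0.20 in HOXA9 OFF. In the HOXA9 OFF against CAF-1 OFF comparison 15 of these 18 were higher and 0 were lower, where 21.4% of all genes were higher and 22.2% lower.

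Of 10 primary granule genes tested, 2 were higher in CAF-1 OFF and 4 were higher and 1 lower in HOXA9 OFF. Elane, neutrophil elastase, rose by 1.61 ± 0.42 (log2, SE) in CAF-1 OFF and had 0.70 ± 0.41 in HOXA9 OFF, which was not called. Ctsg, cathepsin G, fell by 1.90 ± 0.15 in HOXA9 OFF and had -0.11 ± 0.15 in CAF-1 OFF, which was not called. Cd63, a granule membrane tetraspanin, and Ms4a3 rose by 1.29 ± 0.15 and 1.19 ± 0.31 in HOXA9 OFF and had 0.10 ± 0.15 and 0.97 ± 0.31 in CAF-1 OFF, which were not called. The summed level of the 10 stayed within 8868 to 16643 CPM in all libraries.

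Late neutrophil surface genes, 12 tested, gave 6 higher in CAF-1 OFF and 10 in HOXA9 OFF. Ccr1, a chemokine receptor, rose by 3.14 ± 0.42 (log2, SE) and 7.28 ± 0.45 in these comparisons. Padi4, which citrullinates histones, rose by 2.40 ± 0.41 and 5.42 ± 0.43. Cxcr4, the bone marrow retention receptor, rose by 1.97 ± 0.47 in HOXA9 OFF and had 0.23 ± 0.45 in CAF-1 OFF, which was not called. Ly6g, a defining marker of mature mouse neutrophils, was at 8.03 and 5.80 CPM in HOXA9 OFF, at 0.474 and 0.680 CPM in CAF-1 OFF and at or below 0.128 CPM in the baseline libraries.

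Of 12 regulators of granulopoiesis, 5 were higher in CAF-1 OFF, and 8 were higher and 1 lower in HOXA9 OFF. Cebpe was at 123 and 73.2 CPM in t0, 277 and 423 CPM in CAF-1 OFF and 432 and 281 CPM in HOXA9 OFF, so that the treated libraries interleaved. Its log2 fold change was 1.83 ± 0.33 (SE) in CAF-1 OFF and 1.86 ± 0.34 in HOXA9 OFF, and 0.02 ± 0.32 between the treatments, which was not called. Gfi1, a repressor of monocyte genes, rose by 0.73 ± 0.20 in CAF-1 OFF and fell by 1.16 ± 0.21 in HOXA9 OFF. Sfpi1, which encodes PU.1, rose by 2.13 ± 0.19 in HOXA9 OFF and had 0.43 ± 0.18 in CAF-1 OFF, which was not called. Stat3, the signal transducer of the G-CSF receptor, rose by 0.77 ± 0.10 and 1.32 ± 0.10.

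Of 15 relatives of the 10 genes by family, 13 were tested, and 1 was higher and 0 were lower in CAF-1 OFF, where 10.5% of all genes were higher. In HOXA9 OFF 9 were higher and 2 lower. The gene called in CAF-1 OFF was the collagenase gene Mmp13, which rose 57.0-fold (log2 5.83 ± 0.97 SE, edgeR adjusted p = 0.0099). S100a6 and S100a11, calcium-binding proteins of the S100 family, rose by 3.89 ± 0.37 and 2.26 ± 0.28 (log2, SE) in HOXA9 OFF, and S100a1 by 0.75 ± 0.18. Mmp14, a membrane-bound metalloproteinase, fell by 4.66 ± 0.51 in HOXA9 OFF and had -0.54 ± 0.41 in CAF-1 OFF, which was not called.

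Some markers of other cell types rose where these genes rose, and others did not. For macrophages, 7 of 12 listed markers were tested, and 2 were higher in CAF-1 OFF and 7 in HOXA9 OFF. Their summed level was 34.7 to 66.4 CPM in t0, 83.4 to 209 CPM in CAF-1 OFF and 1107 to 1908 CPM in HOXA9 OFF, with Marco and Timd4 at 0 in every library. Csf1r, the receptor of macrophage colony-stimulating factor, rose by 1.69 ± 0.41 (log2, SE) and 7.23 ± 0.46, and Emr1, Cd14 and Cd68 rose by 3.96 ± 0.48, 4.05 ± 0.51 and 4.57 ± 0.73 in HOXA9 OFF and were not called in CAF-1 OFF, with 0.20 ± 0.44, 1.59 ± 0.48 and 0.89 ± 0.69. Eosinophil and basophil markers, 10 of 11 tested, gave 3 higher in CAF-1 OFF and 6 higher and 1 lower in HOXA9 OFF, with sums of 846 to 1552 CPM in t0, 2370 to 2488 CPM in CAF-1 OFF and 8292 to 13199 CPM in HOXA9 OFF. Prg2 made up most of the HOXA9 OFF sums, at 11637 and 7118 CPM. Prg2 and Epx, eosinophil granule proteins, rose by 3.59 ± 0.46 and 6.64 ± 0.58 in HOXA9 OFF, and Prg3 by 1.74 ± 0.21. Cpa3, a mast cell and basophil protease, rose by 2.14 ± 0.33 in CAF-1 OFF and had 0.41 ± 0.32 in HOXA9 OFF, which was not called. Mcpt8, a basophil protease, was the gene that was lower: it rose by 2.95 ± 0.15 in CAF-1 OFF and fell by 2.26 ± 0.16 in HOXA9 OFF. Of these, Chi3l3 is also made by macrophages and Lcn2 and S100a8 by monocytes, and the part that such cells had in the levels of the 10 genes was not tested.

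Erythroid and megakaryocyte markers, 8 of 11 tested, gave 5 higher in CAF-1 OFF, and 4 higher and 1 lower in HOXA9 OFF, with sums of 95.02 to 108 CPM in t0, 327 to 333 CPM in CAF-1 OFF and 151 to 152 CPM in HOXA9 OFF. Car2, the carbonic anhydrase of erythroid cells, was the gene that was lower: it fell by 4.82 ± 0.19 (log2, SE; edgeR adjusted p = 9.9e-06) in HOXA9 OFF and rose by 0.67 ± 0.15 in CAF-1 OFF. Gp9, a platelet glycoprotein, rose by 1.84 ± 0.28 and 0.99 ± 0.28 in CAF-1 OFF and HOXA9 OFF. Pf4, platelet factor 4, rose by 4.98 ± 1.06 (log2, SE) in CAF-1 OFF, and Itga2b, the platelet integrin chain, by 2.50 ± 0.21 there and 2.68 ± 0.21 in HOXA9 OFF, where Pf4 had 1.96 ± 0.99 and was not called. Lymphoid markers, 5 of 10 tested, gave 2 higher in CAF-1 OFF (Nkg7 by 1.76 ± 0.37 and Cd79a by 2.82 ± 0.41), and 1 higher (Cd79a by 1.46 ± 0.40) and 1 lower in HOXA9 OFF, with Cd3e at 0 in every library and sums of 53.5 to 83.7 CPM in the t0, CAF-1 OFF and HOXA9 OFF libraries. Progenitor markers, 7 tested, gave 2 higher and 0 lower in CAF-1 OFF, and 2 higher and 4 lower in HOXA9 OFF, where Cd34, Kit and Myb fell by 2.86 ± 0.16, 1.78 ± 0.14 and 1.45 ± 0.21. Csf2rb, a cytokine receptor chain, rose by 2.02 ± 0.16 in CAF-1 OFF and 2.26 ± 0.16 in HOXA9 OFF. In CAF-1 OFF the log2 fold changes of Cd34, Kit and Myb were 0.08 ± 0.15, 0.23 ± 0.13 and -0.00 ± 0.21, and none of these 3 was called. The granule genes of CAF-1 OFF cells therefore rose in libraries in which the RNA of these progenitor genes did not pass the test for a fall.

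Mmp8 lies in a cluster of metalloproteinase genes on chromosome 9, which was examined after its values had been seen. Besides Mmp8, 3 genes of the cluster passed the filter. Mmp13, a collagenase, was at 0.668 and 1.20 CPM in t0, 35.5 and 71.8 CPM in CAF-1 OFF and 5.64 and 34.5 CPM in HOXA9 OFF. Mmp12, macrophage elastase, was at 15.2 and 29.0 CPM, 110 and 238 CPM, and 3.31 and 289 CPM in the same order. Mmp27, which starts 2.91 kb after the end of Mmp8 on the same strand, was at 0.401 and 0.257 CPM, 4.26 and 4.76 CPM, and 1.25 and 1.88 CPM, and its log2 fold change in CAF-1 OFF against t0 was 3.76 (edgeR adjusted p = 0.0046). All 4 genes were higher in both CAF-1 OFF libraries than in every t0 and IPTG control library. The share of all tested genes separated in this way was not counted, so the separation is a description only. Mmp12 was not called in CAF-1 OFF, at a log2 fold change of 2.98 ± 1.41 (SE; edgeR adjusted p = 0.170) against t0 and an adjusted p = 0.198 against the IPTG control. Whether reads that run on from Mmp8 reach Mmp27 was not tested.

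**Figure D4:**
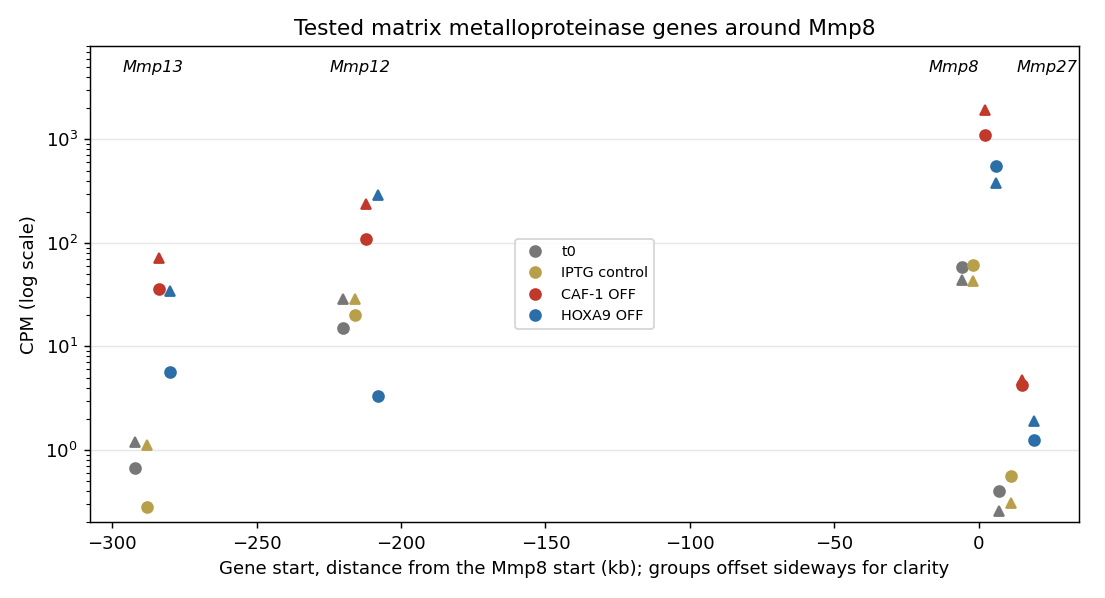
CPM, on a log axis, of the 4 tested metalloproteinase genes around Mmp8 in each library (circle, replicate 1; triangle, replicate 2), placed by the distance of each gene start from the Mmp8 start in kb, with groups offset sideways. The CAF-1 OFF points are above the t0 and IPTG control points for Mmp13, Mmp12, Mmp8 and Mmp27, and the HOXA9 OFF points of Mmp12 are far apart at 3.31 and 289 CPM.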

How the data were processed

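Bulk RNA was sequenced from 8 libraries of iGMP cells in 4 groups of 2, taken from the sample labels. Per the study's methods and the submitters' processing notes, the authors used STAR for alignment to mm9 and HTSeq for counting. The deposited values are raw counts per gene symbol, without normalization or pooling of replicates. The annotation version, and whether counting used the strand, are not given in the sources used here, so counts of overlapping genes are uncertain. HTSeq summary lines were kept out of library sizes (reads in no feature, 5.30 to 14.6%).

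Counts were fitted with edgeR 4.0.16 in R 4.3.3: filterByExpr, TMM scaling, and a single quasi-likelihood fit of 8 libraries with a mean per group. The contrasts were tested with Benjamini-Hochberg adjustment over 13080 genes. Calls were genes with FDR under 0.05 and 1.5-fold or more. CPM used TMM-scaled library sizes, log2 CPM a prior count of 2, and SE and intervals were derived from the F statistic. Totals of 14044284 to 22423837 counts set the precision, the biological coefficient of variation was 18.9%, and floors of 3 counts cover counting error only. The code was tested on simulated data.

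The 10 genes, the other gene lists and the motifs were chosen with earlier results of these data known. Named genes were the 10, Chaf1b, per list up to 4 called genes with the highest mean CPM, and the 5 genes most correlated with the mean profile among those whose log2 CPM averaged 2 or more. Spi1 was matched as Sfpi1. Some genes that this rule names are not reported here. Genes named otherwise (Ly6g, Mmp12, C1qb, Chi3l4, Chi3l1, Fpr1, Fpr2, Mcpt8, Marco, Timd4, Cd3e, the Mmp cluster) were chosen after their values were seen. Lengths, positions and 50-base windows came from GENCODE vM1, and promoters from RefSeq. Alternatives were DESeq2 1.42.0 (test, and size factors), library size only, other filters, only the groups compared, the replicate block, each library left out, FDR 0.01 with 2-fold, and protein-coding denominators. Length by longest transcript was added after seeing the data.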

Additional observations from a re-analysis of the deposited data

How the results depend on the processing

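The call counts for HOXA9 OFF against t0 (10), HOXA9 OFF against CAF-1 OFF (10) and IPTG control against t0 (0) were the same under every alternative run, although with only the groups compared 8 of the 10 genes were tested in the last. Leaving out each library in turn gave 4 to 8 calls for CAF-1 OFF against t0 and 3 to 7 for CAF-1 OFF against IPTG control. At FDR 0.01 and 2-fold, CAF-1 OFF against IPTG control gave 4 calls. A group left with a single library was assumed to vary like the others. Leaving out IPTG control replicate 2 turned the uncalled Ltf value against that control to -0.50, and without the other libraries in turn it reached up to 0.98 (without IPTG control replicate 1). Of the log2 fold changes of single genes, 275 kept their direction and call and 4 gained a call under alternatives that keep all libraries, and with a library left out 301 kept both, 4 gained a call, 14 lost a call and 1 turned. Library size in place of TMM shifted the all-gene median (log2) to -0.18 in HOXA9 OFF against t0 and to -0.27 against CAF-1 OFF, with no member call changed there. With protein-coding genes as denominator the share in IPTG control replicate 1 was 0.0117%.

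Same-numbered libraries deviated together in part between t0 and IPTG control (r of 0.48), t0 and HOXA9 OFF (0.30), and IPTG control and HOXA9 OFF (0.32). Those of CAF-1 OFF did not deviate together with those of any other group (r from -0.04 to 0.08). The main fit did not pair the numbers, so variation that same-numbered libraries share was left in its spread. With the replicate block, the counts were 7 for CAF-1 OFF against t0, 10 for HOXA9 OFF against t0, 0 for IPTG control against t0, 7 for CAF-1 OFF against IPTG control and 10 for HOXA9 OFF against CAF-1 OFF, and the block changed no member call. With 2 libraries per group, and baselines of 4 to 10 counts for Ltf and 2 to 8 for Camp, small changes of these genes were not detectable at this depth.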
